A study of Mus musculus with 30 samples.

Results

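Sodium and chloride transport in fetal lung was followed through 7 genes, chosen by name: Scnn1a, Scnn1b and Scnn1g, Atp1b1, Cftr, Slc12a2 and Nedd4l. They are 7 of the 18193 genes that the array measures with at least 1 probe set of a single gene symbol. The 7 genes have 19 probe sets on the array, and each gene was read from its brightest probe set, by the mean of 30 arrays.

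Before birth the lung is filled with liquid that its own epithelium makes. Chloride enters the cells from the blood side through the cotransporter encoded by Slc12a2 and leaves into the airspace through apical channels, of which the Cftr product is one, and water follows. Toward birth the epithelium turns to absorption: sodium enters from the airspace through the epithelial sodium channel, whose alpha, beta and gamma subunits are encoded by Scnn1a, Scnn1b and Scnn1g, and is pumped out by the sodium pump, of which Atp1b1 encodes a beta subunit. Nedd4l encodes a ubiquitin ligase that takes the sodium channel off the cell surface.

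Pregnant CD-1 mice, an outbred stock, received 0, 5 or 10 mg/kg/day of the potassium salt of PFOS (perfluorooctane sulfonate, a fluorinated surfactant that persists in the body) by gavage in 0.5% Tween 20. Dosing ran over gestation days 1 to 17, and tissue was taken on day 18, called full term in the labels. Each array carries RNA pooled from 3 fetuses of 1 litter, and 5 litters were measured per dose in lung and in liver, 15 arrays a tissue. The groups are thus lungs, and likewise livers, at 0, 5 and 10 mg/kg/day, and all of them, 0 mg/kg/day included, share the stock, the gavage, the vehicle and the day. The sex of the pooled fetuses is not labelled, and only a portion of each organ was taken. Levels are log2 values in which 1 unit is a factor of 2, and a level of one gene cannot be set against that of another because their probes differ. In pooled whole tissue, fewer cells of a type and less RNA per cell cannot be told apart.

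The tissue labels were borne out by defining markers. Sftpc, the surfactant protein C gene of alveolar type II cells, averaged 13.57 to 13.59 in the 3 lung groups and 4.71 to 5.18 in the 3 liver groups. Albumin mRNA, made by hepatocytes, averaged 13.85 to 13.86 in liver, and it was also bright in lung, at 12.07 to 12.33. Litter 1 at 0 and litter 1 at 5 mg/kg/day stood apart from the other 13 lung arrays on the first principal component over all genes, at 26.4 and 26.1 against -9.54 to 1.52. Their lungs had the 2 highest Alb levels, 13.11 and 13.17, against 11.22 to 12.52 in the others. The livers with the same dose and number, which the labels do not tie to the same litters, had the highest Sftpc levels, 6.27 and 6.77, against 4.22 to 5.35. Xist, the RNA that coats the inactive X chromosome of female cells, was lowest in these arrays of each tissue, at 5.38 and 5.56 in lung against 8.82 to 11.05 in the other 13, and at 5.82 and 4.80 in liver against 8.23 to 10.28. Where leaving out litter 1 at 0 and 5 mg/kg/day moved a change of the 7 genes from unexposed lung, the value without them is given too.

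Promoters of 4 genes are shown. The sodium channel and sodium pump genes correlated between lungs at 0.34 to 0.72 (Pearson's r), and Cftr with the same genes at -0.05 to 0.39. A link between promoter sequence and these correlations was not tested, and no promoter of Scnn1a was available. Scnn1g (chr7:121734420-121768482) and Scnn1b (chr7:121865038-121918728) are neighbours with 96.6 kb and no annotated gene between them, whereas Scnn1a (chr6:125314271-125344943) lies elsewhere. Atp1b1 is at chr1:164437099-164458355 and Cftr at chr6:18170687-18322770 in GRCm38.p6. The stretches are from RefSeq on the same build, 5′ to 3′ on the gene's strand. Each gives the 250 bases before the transcript start, except that of Scnn1g, which is cut to 191 bases because the annotated gene begins inside the window. Capitals mark the letters GGGCGG (the GC box) or CCAAT on either strand.
Scnn1b, chr7:121864788-121865037, plus strand: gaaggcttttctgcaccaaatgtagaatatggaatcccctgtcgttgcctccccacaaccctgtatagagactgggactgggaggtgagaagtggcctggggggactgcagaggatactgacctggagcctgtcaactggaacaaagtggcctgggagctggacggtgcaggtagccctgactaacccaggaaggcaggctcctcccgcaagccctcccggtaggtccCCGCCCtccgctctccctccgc
Scnn1g, chr7:121734229-121734419, plus strand: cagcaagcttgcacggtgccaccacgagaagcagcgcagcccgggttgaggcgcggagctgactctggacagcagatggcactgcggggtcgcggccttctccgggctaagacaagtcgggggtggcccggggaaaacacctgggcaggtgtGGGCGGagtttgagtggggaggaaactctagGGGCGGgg
Atp1b1, chr1:164458356-164458605, minus strand: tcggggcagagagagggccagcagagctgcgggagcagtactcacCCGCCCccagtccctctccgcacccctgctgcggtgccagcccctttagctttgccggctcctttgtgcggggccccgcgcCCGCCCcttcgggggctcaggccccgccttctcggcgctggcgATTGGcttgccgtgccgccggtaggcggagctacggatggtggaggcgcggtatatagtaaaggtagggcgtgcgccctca
Cftr, chr6:18170437-18170686, plus strand: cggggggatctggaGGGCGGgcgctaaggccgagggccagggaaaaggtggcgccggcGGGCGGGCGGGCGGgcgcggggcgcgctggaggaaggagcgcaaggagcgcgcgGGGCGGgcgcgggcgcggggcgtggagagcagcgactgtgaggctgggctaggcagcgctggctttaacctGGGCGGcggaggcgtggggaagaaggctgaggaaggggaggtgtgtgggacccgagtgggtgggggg
GGGCGG was found 1 time before Scnn1b, 2 times before Scnn1g, 2 times before Atp1b1 and 6 times before Cftr, where 3 of the copies overlap. CCAAT was found 1 time, before Atp1b1. Of 32851 promoters of 250 bases in the table, 32.7% hold GGGCGG and 33.8% hold CCAAT, and 23.1% hold GGGCGG in the shorter stretch used for Scnn1g. TATAAA, held by 12.4%, and AGAACA, a sequence bound by steroid receptors and held by 16.1%, were searched on both strands and not found in any of the 4. The bases were 60.8% G or C before Scnn1b, 67.0% before Scnn1g, 70.4% before Atp1b1 and 76.4% before Cftr, against a median of 52.4% over all promoters.

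All 7 genes were higher in unexposed lung than in unexposed liver. The comparison asks how far each transcript belongs to the lung at this stage. Of the 6 that passed the filter on dim probe sets in both tissues, 6 were called higher at an adjusted p under 0.05 (limma, Benjamini-Hochberg over 13879 genes), in a comparison in which 82.9% of genes were called and 40.3% were called higher. Cftr passed through lung alone, so that a call for it was fixed by the filter. The median difference of the 6 was 2.85, against -0.04 over all genes, and the lowest lung litter lay above the highest liver litter for each of the 6. That separation upward held for 35% of all genes tested.

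Among the absorptive genes, Scnn1g had a level of 8.38 ± 0.13 in unexposed lung and 4.27 ± 0.28 in unexposed liver (SD, n = 5 litters each), a difference of 4.11 (95% interval 3.73 to 4.49). Scnn1a averaged 8.70 ± 0.33 in lung and 5.77 ± 0.32 in liver, a difference of 2.93 (2.55 to 3.31). Scnn1b averaged 6.55 ± 0.22 in lung and 4.33 ± 0.51 in liver, a difference of 2.22 (1.79 to 2.64). In liver the beta and gamma subunit genes lay near the cut-off for a dim probe set, the 40th percentile of an array's probe sets at 4.16 to 4.23: 9 and 8 of 15 liver arrays were above it, against 15 of 15 lung arrays for each. With dim liver levels set to that percentile, the differences were at least 4.03 for Scnn1g and at least 2.06 for Scnn1b. Atp1b1 averaged 11.20 ± 0.14 in lung and 8.42 ± 0.15 in liver, a difference of 2.78 (2.60 to 2.95). Of its 4 other probe sets, 3 gave 2.25 to 2.36 and the dimmest gave 0.02.

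Of the secretory genes, Slc12a2 averaged 11.59 ± 0.33 in lung and 6.89 ± 0.59 in liver, a difference of 4.70 (4.29 to 5.11), or 26.0-fold, with all liver arrays above the dim cut-off. Cftr averaged 6.70 ± 0.24 in lung and a dim 2.56 ± 0.41 in liver, which bounds the difference only: with liver set to the 40th percentile of each array, Cftr was at least 5.64-fold higher in lung. The other probe set of Cftr was dim in both tissues, at 2.60 in unexposed lung and 1.67 in unexposed liver. All values of Cftr thus rest on 1 probe set. Cftr was above the 40th percentile on 15 of 15 lung arrays and on 0 of 15 liver arrays, where it ran from 1.99 to 3.04. It was therefore not tested within liver. Nedd4l averaged 9.56 ± 0.25 in lung and 7.59 ± 0.28 in liver, a difference of 1.97 (1.72 to 2.23). The adjusted p of the 6 differences other than that of Cftr ran from 6.92e-22 for Atp1b1 to 8.75e-11 for Scnn1b, and all 6 were called without litter 1 at 0 and 5 mg/kg/day as well. The plot of levels shows the order of the groups: for every gene the 3 lung groups lie above the 3 liver groups, and the lung groups overlap each other.

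**Figure D1:**
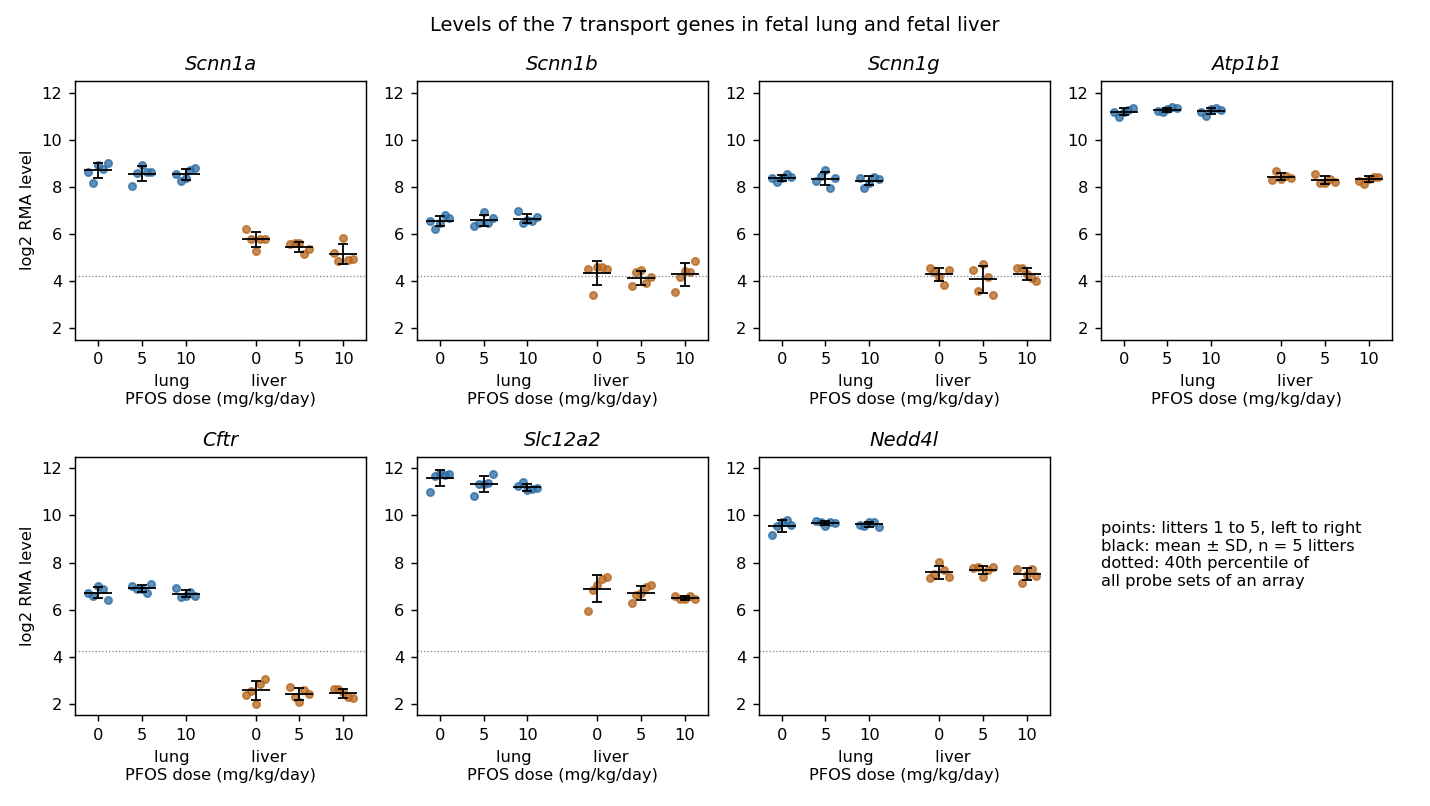
Levels of the 7 transport genes (log2 RMA level) in fetal lung (blue, left) and fetal liver (orange, right) at 0, 5 and 10 mg/kg/day of PFOS. Points are litters 1 to 5 from left to right, black bars are the mean ± SD of 5 litters and the dotted line is the 40th percentile of an array's probe sets; Slc12a2 shows a gap of 4.70 between unexposed tissues, Cftr lies under the dotted line in liver, and the lung groups overlap in every panel.

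The dose groups ask whether PFOS moved the absorptive or the secretory genes of the lung before birth. All 7 passed the filter on dim probe sets in lung. None of the 7 was called in lung at 5 or at 10 mg/kg/day (limma, adjusted over 12897 genes), where 0.0155% and 0.0543% of all genes were called, 2 and 7 genes. At an unadjusted p under 0.05, 0 of 7 passed at 5 mg/kg/day and 1 of 7, Slc12a2, at 10 mg/kg/day, against 4.62% and 6.91% of all genes. In no member did the exposed and the unexposed lungs separate without overlap, which 0.837% and 1.23% of all genes did. The median size of change over the 7 was 0.13 at 5 and 0.10 at 10 mg/kg/day, against 0.06 and 0.07 over all genes.

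Scnn1a, the gene of the alpha subunit that a working channel needs, had levels of 8.65, 8.16, 8.93, 8.74 and 9.01 in litters 1 to 5 at 0 mg/kg/day. Its levels were 8.05, 8.58, 8.91, 8.63 and 8.62 at 5 mg/kg/day, and 8.56, 8.25, 8.36, 8.70 and 8.81 at 10 mg/kg/day. The spread between litters of one dose, 0.23 to 0.33 (SD), was wider than the changes of -0.14 (95% interval -0.50 to 0.22) at 5 and -0.16 (-0.52 to 0.20) at 10 mg/kg/day. The intervals leave room for a fall of 0.52 and a rise of 0.22. Without litter 1 at 0 and 5 mg/kg/day the changes were -0.025 and -0.17.

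Scnn1b, the beta subunit gene, had levels of 6.56, 6.23, 6.48, 6.81 and 6.65 at 0 mg/kg/day. They were 6.32, 6.44, 6.94, 6.45 and 6.69 at 5 mg/kg/day, and 6.97, 6.45, 6.58, 6.55 and 6.70 at 10 mg/kg/day. The groups overlapped, with the highest litter of all at 10 mg/kg/day and the lowest at 0 mg/kg/day, and the changes were 0.02 (-0.25 to 0.29) and 0.10 (-0.17 to 0.38). Without litter 1 at 0 and 5 mg/kg/day they were 0.087 and 0.11.

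Scnn1g, the gamma subunit gene, was the steadiest subunit among unexposed litters, with 8.38, 8.19, 8.38, 8.56 and 8.40. Levels at 5 mg/kg/day were 8.23, 8.44, 8.70, 7.97 and 8.38, which spread on both sides of the unexposed litters. Levels at 10 mg/kg/day were 8.38, 7.95, 8.17, 8.44 and 8.32, and 4 of these 5 lay below the unexposed mean. The changes were -0.04 (-0.29 to 0.22) and -0.13 (-0.39 to 0.13), and -0.0098 and -0.13 without litter 1 at 0 and 5 mg/kg/day.

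Atp1b1, the pump subunit gene, had levels of 11.18, 10.99, 11.19, 11.29 and 11.36 in unexposed lungs, 11.22, 11.17, 11.31, 11.38 and 11.34 with 5 mg/kg/day and 11.20, 11.03, 11.33, 11.35 and 11.25 with 10 mg/kg/day. The 3 groups ran over nearly the same range. Its changes were 0.08 (-0.08 to 0.25) and 0.03 (-0.13 to 0.20), so that a change of more than 0.25 in either direction lies outside both intervals. Without litter 1 at 0 and 5 mg/kg/day the changes were 0.095 and 0.027.

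Cftr had levels of 6.69, 6.58, 6.99, 6.86 and 6.40 at 0 mg/kg/day. Levels were 7.02, 6.88, 6.85, 6.71 and 7.07 at 5 mg/kg/day, and 6.91, 6.54, 6.59, 6.73 and 6.56 at 10 mg/kg/day. All 5 litters at 5 mg/kg/day lay above the unexposed mean, 3 of them inside the unexposed range and 2 above it, and the litters at 10 mg/kg/day lay within the unexposed range. The change was 0.20 (-0.03 to 0.43, adjusted p = 0.998) at 5 and -0.04 (-0.27 to 0.19, adjusted p = 0.966) at 10 mg/kg/day. Without litter 1 at 0 and 5 mg/kg/day the changes were 0.17 and -0.041. Between the doses, 10 minus 5 mg/kg/day, Cftr differed by -0.24 (-0.47 to -0.01), which was not called (adjusted p = 1.00 over 12897 genes, of which 0% were called).

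Slc12a2 had levels of 11.01, 11.69, 11.79, 11.71 and 11.76 at 0 mg/kg/day. Its levels were 10.82, 11.35, 11.36, 11.40 and 11.75 at 5 mg/kg/day, and 11.23, 11.45, 11.08, 11.11 and 11.16 at 10 mg/kg/day. Litters 2 to 5 at 0 mg/kg/day were above all 5 litters at 10 mg/kg/day, and litter 1 at 0 mg/kg/day was below all of them, so that the groups overlap through that litter alone. The change was -0.26 (-0.60 to 0.09) at 5 mg/kg/day. At 10 mg/kg/day it was -0.39 (-0.73 to -0.04), 0.765 of the unexposed level, with 5 of 5 litters below the unexposed mean, and it was not called (adjusted p = 0.651). The other 2 probe sets of the gene gave -0.45 and -0.44 at 10 mg/kg/day and -0.30 and -0.28 at 5 mg/kg/day, none of them called among 23306 probe sets, of which 0.0172% and 0.00858% were called. Without litter 1 at 0 and 5 mg/kg/day the change at 10 mg/kg/day was -0.53 (adjusted p = 0.0893). That fit was added after the data were seen, with litter 1 known to lie apart, so no conclusion is drawn from its p-value.

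Nedd4l had levels of 9.16, 9.53, 9.71, 9.82 and 9.59 at 0 mg/kg/day. Levels were 9.77, 9.73, 9.56, 9.71 and 9.68 at 5 mg/kg/day, and 9.59, 9.57, 9.73, 9.72 and 9.52 at 10 mg/kg/day. Litter 1 at 0 mg/kg/day was the lowest of the 15 lungs, and the exposed litters ran from 9.52 to 9.77, within the unexposed range. The changes were 0.13 (-0.08 to 0.33) and 0.06 (-0.14 to 0.27), and 0.0085 and -0.036 without litter 1 at 0 and 5 mg/kg/day. Probe sets disagreed: the other 5 of the gene gave -0.24 to -0.04 at 5 and -0.30 to -0.07 at 10 mg/kg/day, none of them called, and the mean over all 6 gave -0.07 and -0.10.

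**Figure D2:**
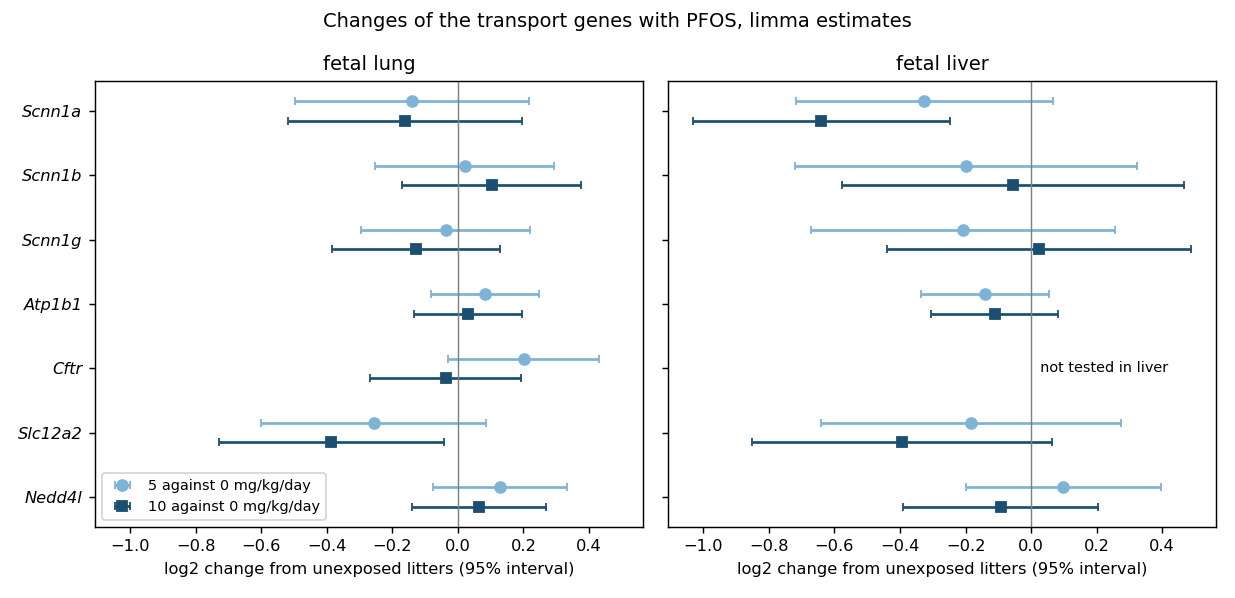
Change of each gene from unexposed litters (log2, limma estimate with 95% interval) at 5 mg/kg/day (light circles) and 10 mg/kg/day (dark squares) of PFOS in fetal lung (left) and fetal liver (right). In lung the interval of Slc12a2 at 10 mg/kg/day, -0.73 to -0.04, is the only one that does not cross 0; in liver that of Scnn1a at 10 mg/kg/day does not, and Cftr was not tested there.

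The balance of absorption and secretion was described by averaging, in each litter, the changes from the unexposed mean over Scnn1a, Scnn1b, Scnn1g and Atp1b1, and over Cftr and Slc12a2. At 5 mg/kg/day the absorptive genes averaged -0.02 ± 0.19 and the secretory genes -0.03 ± 0.18 (SD, n = 5 litters). At 10 mg/kg/day the absorptive genes averaged -0.04 ± 0.15 and the secretory genes -0.21 ± 0.10, with litters from -0.31 to -0.07. Unexposed litters ran from -0.30 to 0.25 for the secretory genes, a range that holds 4 of the 5 litters at 10 mg/kg/day. Its lower end is litter 1 alone: all 5 litters at 10 mg/kg/day, the highest at -0.075, lay below unexposed litters 2 to 5, which ran from -0.072 to 0.25. Without litter 1 at 0 and 5 mg/kg/day, the secretory average was -0.05 ± 0.16 at 5 mg/kg/day (SD, n = 4 litters) and -0.29 ± 0.10 at 10 mg/kg/day (SD, n = 5 litters), and the absorptive average 0.04 ± 0.16 and -0.04 ± 0.15. The difference, absorption minus secretion, ran from -0.30 to 0.29 in unexposed litters and averaged 0.01 ± 0.18 at 5 and 0.17 ± 0.19 at 10 mg/kg/day. The averages carry no test, since the genes were grouped with results known, and the lower secretory average at 10 mg/kg/day comes from Slc12a2 (-0.39) and not from Cftr (-0.04).

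**Figure D3:**
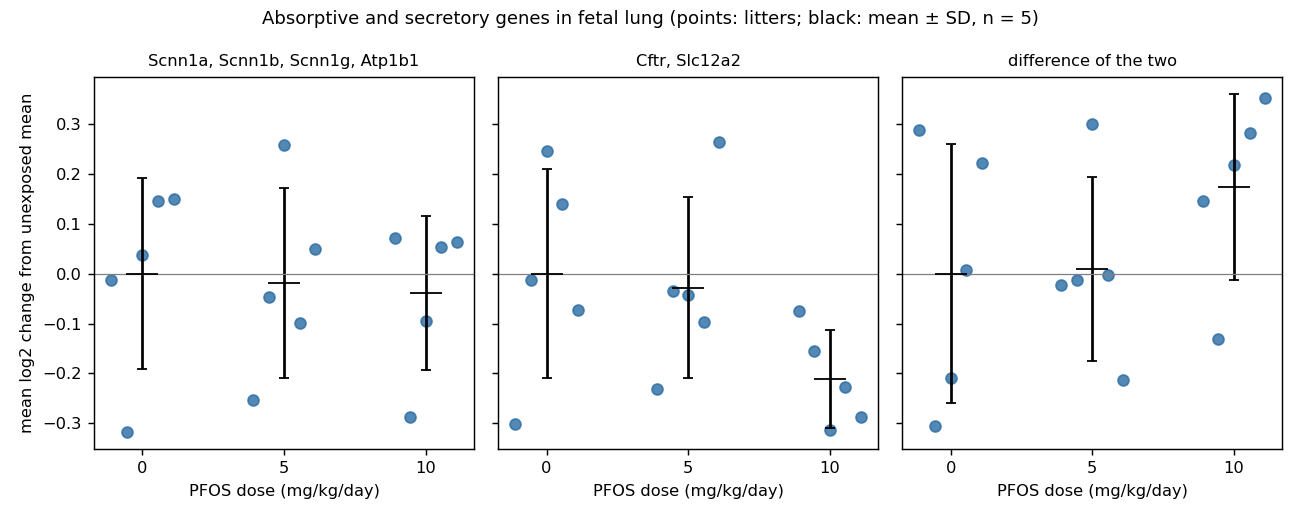
Mean log2 change from the unexposed mean in fetal lung, for the 4 absorptive genes (left), the 2 secretory genes (middle) and absorption minus secretion (right), against PFOS dose in mg/kg/day. Points are litters and black bars the mean ± SD of 5; at 10 mg/kg/day all 5 litters are below 0 in the middle panel (-0.31 to -0.07), while the unexposed litters there run from -0.30 (litter 1) to 0.25, and from -0.072 without litter 1.

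Slc12a2 varied between litters together with Xist. Over the 15 lung arrays, as deviations from the mean of each dose, the Pearson correlation with Xist was 0.92 and Spearman's 0.76. Over the 15 liver arrays they were 0.88 and 0.81. The livers may come from the same litters as the lungs, so they are not taken as an independent set. Both values of a point share a pool and an array, and the 2 litters with the lowest Xist carry much of the value: over the other 13 lung arrays Pearson's r was 0.58. The 3 probe sets of Slc12a2 gave 0.90 to 0.94 in lung and 0.37 to 0.88 in liver. For the other 6 genes r with Xist ran from 0.09 to 0.50 in lung and from -0.50 to 0.36 in liver. Xist had the highest r with Slc12a2 in lung among 12376 genes compared over these same arrays, so a high lung value is built in. The contrast with the other 6 genes in lung therefore carries no weight. Over the 13 lung arrays Cftr had 0.52 and Scnn1b 0.49, close to the 0.58 of Slc12a2, and the other 4 had 0.04 to 0.33. Slc12a2 (chr18:57878512-57946821 in GRCm38.p6) lies on chromosome 18, as does Nedd4l (chr18:64884480-65217826), and not on the X chromosome. With the Xist level as a covariate, Slc12a2 changed by -0.43 in lung at 10 mg/kg/day (adjusted p = 0.0606), against -0.39 without it. The covariate was added after the data were seen, with Xist known to vary with Slc12a2, so no conclusion is drawn from that p-value. Xist itself averaged 9.46 ± 0.71 in lung at 10 mg/kg/day and 9.16 ± 2.19 in unexposed lung (SD, n = 5 litters each). Eif2s3y, a gene of the Y chromosome, was at 1.44, 1.71 and 1.56 in 3 lung pools (litter 4 at 0, litter 5 at 5 and litter 1 at 10 mg/kg/day) and at 5.65 to 7.62 in the other 12, with the highest 2 values, 7.06 and 7.62, in the 2 pools with the lowest Xist. The labels give no sex, and the part of the sex of the pooled fetuses in the level of Slc12a2 was not tested.

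**Figure D4:**
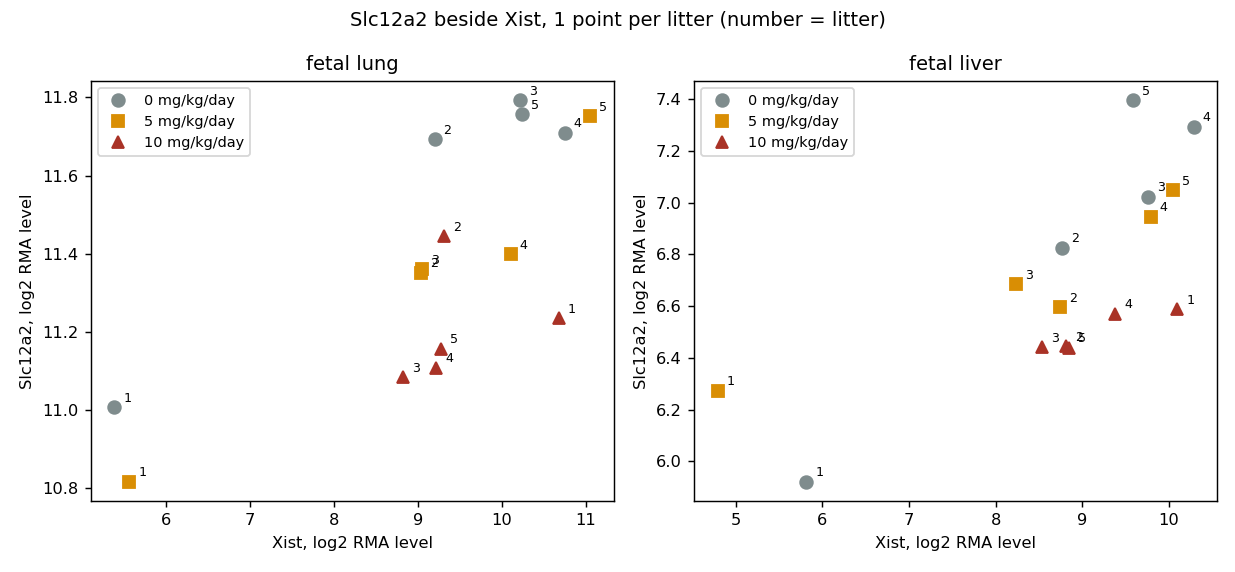
Slc12a2 (vertical, log2 RMA level) against Xist (horizontal, log2 RMA level) in fetal lung (left) and fetal liver (right), 1 point per litter with its number, marked by dose. Litter 1 at 0 and at 5 mg/kg/day lies at the lower left in both tissues (Xist 5.38 and 5.56 in lung), with Slc12a2 at 11.01 and 10.82 in lung.

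The sodium channel subunits varied together from lung to lung. As deviations from the dose mean over 15 lung arrays, Pearson's r was 0.67 between Scnn1a and Scnn1b, 0.59 between Scnn1a and Scnn1g, and 0.72 between Scnn1b and Scnn1g. It stayed at 0.61, 0.60 and 0.72 over the 13 arrays without litter 1 at 0 and 5 mg/kg/day. Atp1b1 went with Scnn1a (0.66), less with Scnn1b (0.49) and with Scnn1g (0.34). Between the secretory genes Cftr and Slc12a2 r was 0.00, and Cftr reached at most 0.39 with a channel subunit. Slc12a2 with Nedd4l gave 0.40, and -0.16 over the 13 arrays. In liver, where Scnn1b and Scnn1g were near the dim cut-off, the same 3 subunit pairs gave -0.32 to 0.19. These are descriptions, with no test, and both values of a point share a pool and an array.

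**Figure D5:**
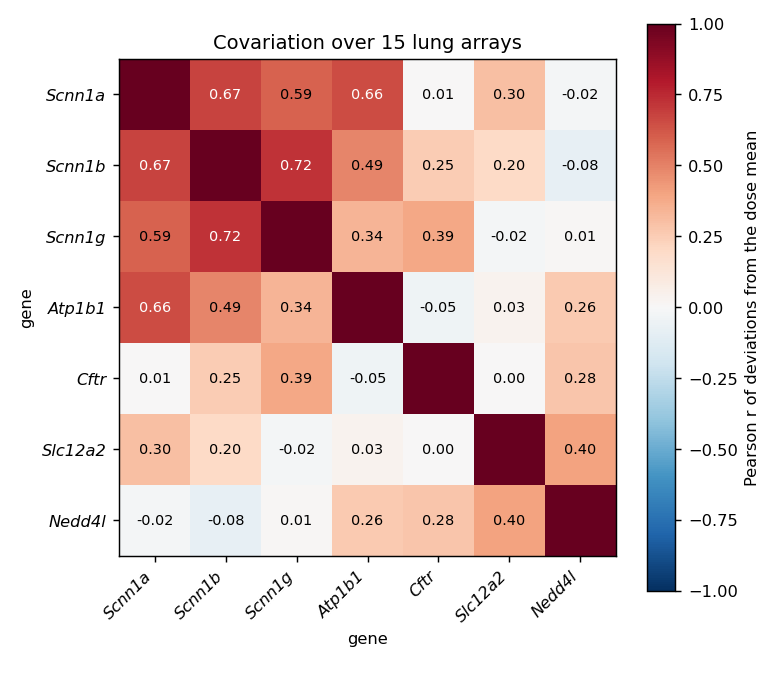
Pearson's r between the 7 genes over 15 lung arrays, as deviations from the mean of each dose; red is positive and blue negative. The 3 Scnn1 genes and Atp1b1 form the red corner (0.34 to 0.72), and Cftr with Slc12a2 is at 0.00. Outside the corner, Slc12a2 with Nedd4l (0.40) and Cftr with Scnn1g (0.39) are above its lowest value.

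By the same measure, the genes most like each member were sought among 12376 tested genes other than clones and predicted genes. Scnn1g was most like Ager, a gene of flat alveolar type I cells, at 0.93, followed by Nrbp2 (0.92) and Slco2a1 (0.90), a prostaglandin transporter. Atp1b1 was most like Ezr, which links membrane proteins to the actin cortex, at 0.92, followed by Chpt1 and Crybb1. Scnn1a was nearest to Pgrmc2 (0.89), Pnpla2, a triglyceride lipase, and Foxp4, a transcription factor of lung epithelium. Scnn1b was nearest to Ranbp9 (0.88), Arhgap1 and Slc17a5. Cftr was nearest to Ctsf, a lysosomal protease, at 0.91, then Selenok and Arrdc3. Slc12a2 was nearest to Xist (0.92), Fam168a and Dync1li1, and Nedd4l to Prpf18 (0.89), Cwc25 and Mzt2. Over 13 arrays the values of the first 5 members stayed at 0.82 to 0.97, whereas those of Slc12a2 and Nedd4l fell to 0.47 to 0.68. The genes were picked as the highest of 12376, and the 13 arrays are among those used to pick them. High values are therefore built in, and the lists are descriptions with no test.

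Other genes of the pathway gave no call in lung. Of the sodium absorption list (other pump subunits, channel-activating proteases, sodium exchangers), 12 of 22 genes were tested, of the list of corticosteroid and kinase control 16 of 18, and of the chloride list 17 of 31; 0 were called at either dose. At an unadjusted p under 0.05, the counts at 5 mg/kg/day were 0, 2 and 0, and at 10 mg/kg/day 0, 3 and 2, in the same order. Median changes of the lists lay between -0.02 and 0.02 at both doses, against 0.00 and 0.01 over all genes.

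Kcne2, a regulatory subunit of potassium channels such as that of Kcnq1, had the smallest p of the chloride list at 10 mg/kg/day. Its levels were 5.58, 5.73, 5.76, 5.41 and 5.74 at 10 mg/kg/day, against 6.05, 6.16, 6.15, 5.98 and 6.36 at 0 mg/kg/day. The groups did not overlap, as in 1.23% of all genes, and the change of -0.49 (95% interval -0.76 to -0.23) was not called (adjusted p = 0.322). At 5 mg/kg/day Kcne2 ran from 5.72 to 6.38, across both of those ranges.

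Usp2 encodes a deubiquitinase that opposes removal of the sodium channel. It had 6.50, 6.27, 6.31, 6.35 and 6.50 at 10 mg/kg/day, against 6.16, 5.77, 5.94, 6.11 and 6.10 at 0 mg/kg/day. These groups did not overlap either, and the change of 0.37 (0.16 to 0.58) was not called (adjusted p = 0.364). Spint2, an inhibitor of channel-activating proteases, changed by 0.14 (0.03 to 0.25) at both doses, with 5 of 5 litters above the unexposed mean each time and adjusted p of 0.987 at 5 and 0.594 at 10 mg/kg/day. Sgk1, a kinase induced by corticosteroids that restrains Nedd4l, changed by 0.27 at 5 mg/kg/day (adjusted p = 0.998). The remaining genes with the smallest p of their lists were Tmprss4 (0.18), Fxyd3 (0.15), Slc12a7 (-0.12) and Best1 (-0.13) at 5 mg/kg/day. At 10 mg/kg/day they were Slc9a3r1 (0.11), Atp1b2 (-0.12) and Stx1a (-0.19); none was called.

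In unexposed lung against unexposed liver, where 42.6% of all genes were called lower in lung, the lists split. Of 12 genes tested of the sodium absorption list 6 were called higher and 3 lower in lung, of 16 of the control list 10 higher and 4 lower, and of 18 of the chloride list 10 higher and 8 lower. The chloride counts include Kcnj15, Kcne2 and Clcn2, each dim on all unexposed arrays of the tissue where it was lower. Their calls therefore carry no weight. Ano1, a calcium-activated chloride channel, was 3.82 higher in lung. Kcnj15, a potassium channel, and Kcne2 were dim on all unexposed liver arrays, which bounds them at 16.1-fold and 3.81-fold higher in lung or more. Slc4a1, the anion exchanger of red cells, was lower in lung with -3.65, as was Kcnn4, a calcium-activated potassium channel, with -3.63. Slc9a3r2 (2.85), Spint1 (2.52), Tsc22d3 (1.97), St14 (1.80), Fxyd3 (1.59) and Wnk1 (1.47) were higher in lung. Sgk3 (-1.87), Fxyd1 (-1.76), Slc9a3r1 (-1.57), Wnk2 (-0.51), Slc4a4 (-0.31) and Hsd11b1 (-0.26) were lower in lung, and Clcn2, dim on all unexposed lung arrays, was at least 1.56-fold higher in liver.

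In liver, 1 of the 6 members tested was called: Scnn1a fell at 10 mg/kg/day. At 5 mg/kg/day 0 of 6 were called, against 6.07% of 13269 genes, and at 10 mg/kg/day 1 of 6, against 10.5% called and 5.22% called lower, so the count is near the background. Scnn1a had liver levels of 5.20, 4.83, 5.83, 4.87 and 4.92 at 10 mg/kg/day, against 6.20, 5.79, 5.29, 5.79 and 5.78 at 0 mg/kg/day. Litters 1, 2, 4 and 5 at 10 mg/kg/day were below all unexposed litters, and litter 3 was above 4 of them. The change was -0.64 (95% interval -1.03 to -0.25, adjusted p = 0.0364), 0.642 of the unexposed level, and -0.33 (-0.72 to 0.07) at 5 mg/kg/day.

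Leaving out any of 8 of the 10 litters in turn ended the call (adjusted p up to 0.0899), with changes of -0.66 to -0.53 in those 8 fits, and without litter 1 at 0 and 5 mg/kg/day the change was -0.53 (adjusted p = 0.0997). Litter 1 at 0 mg/kg/day had the highest liver Scnn1a, 6.20, and the highest Sftpc among unexposed livers, 6.27, against 4.45 to 5.35 in the others. The part of Sftpc-expressing tissue in that value was not tested. With the replicate number as a block the change was again -0.64, with an adjusted p of 0.0552.

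Slc12a2 in liver had levels of 6.59, 6.44, 6.44, 6.57 and 6.44 at 10 mg/kg/day, against 5.92, 6.83, 7.02, 7.29 and 7.40 at 0 mg/kg/day. The 5 litters at 10 mg/kg/day ran from 6.44 to 6.59, below litters 2 to 5 at 0 mg/kg/day and above litter 1. The change was -0.40 (-0.85 to 0.06, adjusted p = 0.288) and was not called. It was -0.64 (adjusted p = 0.00366) without litter 1 at 0 and 5 mg/kg/day, and -0.46 (adjusted p = 0.0175) with the Xist level as a covariate. Both p-values were past the threshold, but both fits were added after the data were seen. Litter 1 was then known to lie apart and Xist to vary with Slc12a2, so no effect of dose is concluded from them. At 5 mg/kg/day the levels were 6.27, 6.60, 6.68, 6.95 and 7.05, and the change was -0.18 (-0.64 to 0.27).

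The other 4 members tested were not called in liver by the probe set used. Scnn1b changed by -0.20 and -0.05, Scnn1g by -0.21 and 0.02, Atp1b1 by -0.14 and -0.11 and Nedd4l by 0.10 and -0.09, at 5 and 10 mg/kg/day. Atp1b1 depended on the probe set: of its 5, those with -0.34 and -0.35 at 10 mg/kg/day were called (adjusted p = 0.0414 and 0.0143, where 8.18% of 23617 probe sets were called). A probe set with -0.32 was not (adjusted p = 0.0835), nor was the brightest with -0.11. For Slc12a2 1 of 3 liver probe sets was called at 10 mg/kg/day, with -0.48 (adjusted p = 0.0278). Nedd4l also depended on the probe set. Its other probe sets tested in liver gave -0.35 and -0.13 at 5 and -0.47 and -0.29 at 10 mg/kg/day, none of them called.

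The changes in lung were set against those in liver in 1 fit of all arrays. That fit took the arrays as independent, although same-numbered lungs and livers may share a litter. The difference of the changes, lung minus liver, was called at either dose for 0 of the 6 genes that passed the filter in both tissues, where 2.05% and 3.88% of 13879 genes were called. It was largest for Scnn1a at 10 mg/kg/day, 0.48 (-0.06 to 1.02, adjusted p = 0.396). For Slc12a2, which had changes of -0.39 in lung and -0.40 in liver at 10 mg/kg/day, it was 0.01 (-0.58 to 0.59).

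Of 44 genes of the 3 lists tested in liver, 7 (15.9%) were called at 5 and 7 at 10 mg/kg/day, beside 6.07% and 10.5% of all genes. Those described here were called at both doses and are named after their values were seen. Prss8, which cuts and so activates the sodium channel, rose by 0.55 at 5 and 0.59 at 10 mg/kg/day. Cnksr3, a scaffold of channel control, rose by 0.68 and 0.86. Hsd11b1, which makes active glucocorticoid from its inactive form, fell by 0.66 and 1.13, and Tsc22d3, a glucocorticoid target, fell by 0.24 and 0.39. Kcnn4 fell by 0.38 and 0.36 and Slc12a7 by 0.26 and 0.36. In lung Prss8 averaged 7.97 ± 0.21 at 0, 7.97 ± 0.07 at 5 and 7.92 ± 0.14 at 10 mg/kg/day (SD, n = 5 litters each).

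Markers of other cells varied between lungs. The mean level of 10 cardiac muscle genes ran from 6.62 to 9.33 at 0, 6.23 to 8.72 at 5 and 7.53 to 10.26 at 10 mg/kg/day. That of 7 measured hepatocyte genes ran from 8.79 to 10.09, 9.29 to 10.49 and 8.35 to 10.04 over the same doses. The mean of 7 skeletal muscle genes had medians of 4.40 at 0 (4.16 to 5.53), 5.83 at 5 (3.86 to 6.68) and 5.76 at 10 mg/kg/day (4.95 to 6.16), and that of 6 genes of squamous epithelium 3.89 (3.85 to 4.95), 5.20 (3.89 to 5.57) and 4.24 (3.93 to 5.33). Lung epithelial genes, 13 of 14 measured, ran from 10.54 to 10.75, 10.52 to 10.67 and 10.44 to 10.72, and pan epithelial genes, 8 of 8, from 8.58 to 8.90, 8.79 to 8.94 and 8.89 to 9.01. With the cardiac marker level as a covariate 0 of 7 members were called in lung at either dose, and the change of Slc12a2 at 10 mg/kg/day was -0.36. The part of skeletal muscle and squamous epithelium in the lung changes was not tested. In liver at 10 mg/kg/day 4 of 6 mesenchyme genes were called lower (median change -0.32) and 3 of 7 pan epithelial genes higher (0.32). Of hepatocyte genes 2 of 7 and of immune genes 1 of 5 were called lower, and of biliary genes 0 of 3 (median -0.40). Of all genes tested there, 10.5% were called. The part of these cells in the liver changes of Scnn1a and Slc12a2 was not tested.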

How the data were processed

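Transcript levels of 15 fetal lung and 15 fetal liver arrays (Affymetrix mouse expression arrays) are log2 values that the authors deposited after RMA, per the submitters' processing notes. RMA corrects background, normalizes between arrays and summarises each probe set. It works on the premise that the bulk of probe sets is unchanged, and it compresses changes of dim ones. Neither the RMA version nor the set of arrays normalized as 1 is given in the sources used. RNA of integrity number 8 or more was used, per the labels.

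Groups and litter numbers were taken from the sample titles. The array has 45101 probe sets, and the 34945 that the platform annotation ties to 1 symbol gave 18193 genes, each read from its brightest probe set. A gene was tested where it lay above the 40th percentile of the array on at least 5 arrays of the fit. Fits were made per tissue in limma 3.58.1 under R 4.3.3 (1 mean per dose, two-sided, Benjamini-Hochberg over all genes tested, called under 0.05). Both tissues went into 1 fit for the comparisons between them, and matplotlib 3.10.9 drew the figures. The fits were also run on simulated data with independent noise per gene. Those data lack the variation that genes share between arrays here, so no conclusion is drawn from them. With 5 litters per group, the number of litters limits the precision.

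The 7 genes, the pathway and marker lists and the rule for named genes were chosen with earlier results of these data known. That rule takes all 7 genes, the called genes or else the 2 with the smallest p of each list in lung, the 3 largest differences between tissues each way, and the 3 genes most like each member. Alternatives were other filters, normalizations, probe set rules, variance models, array weights, samples in the fit, the replicate number as a block, the cardiac marker level as a covariate and each litter left out. Added after seeing the data were a fit without litter 1 at 0 and 5 mg/kg/day, Xist as a covariate, lung and liver paired by number, and probe sets tested singly. List genes with no probe set of a single symbol were not analysed here.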

Additional observations from a re-analysis of the deposited data

Results flagged for a closer look

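Of 42 groups of 5 litters, 2 held a litter far from the other 4, and chance gives about 2.1. Slc12a2 in unexposed lung was at 11.01 in litter 1, against 11.69 to 11.79 in the others. It is the litter with the lowest Xist among the unexposed lungs, and without it the change at 10 mg/kg/day was -0.53 (limma, adjusted p = 0.456), against -0.39 with it. Scnn1b in unexposed liver was at 3.42 in litter 2, against 4.52 to 4.60 in the others, a range close to the level of a dim probe set. Without it the change of Scnn1b in liver at 10 mg/kg/day was -0.28, against -0.05 with it.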

How the results depend on the processing

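Under all planned and added alternatives 0 of 7 members were called in lung at 5 or 10 mg/kg/day or between the doses. The count was also 0 of 6 in liver at 5 mg/kg/day and 0 of 7 in the differences between lung and liver changes. In lung against liver the 6 members that passed the filter in both tissues were called each time. Cftr was called too, but in the main fit it passed the filter through lung alone, so its call adds nothing. The count of 1 in liver at 10 mg/kg/day was 0 under array weights, in the 2 groups alone and with the replicate block, 2 with Xist as a covariate, and 0 to 1 with a litter left out. Scnn1a there had adjusted p of 0.0718, 0.0702 and 0.0552 in the first 3 of these, in the order given, with changes of -0.57, -0.64 and -0.64. Without litter 1 at 0 and 5 mg/kg/day Scnn1a was not called (limma, adjusted p = 0.0997), and Slc12a2 was (0.00366). The same exchange of genes came without litter 1 at 0 mg/kg/day alone (0.0899 for Scnn1a and 0.0104 for Slc12a2). The cause was not tested.

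Small changes, none of them called, changed sign. With the mean over probe sets, Nedd4l gave -0.068 and -0.10 in lung at 5 and 10 mg/kg/day and -0.14 in liver at 5 mg/kg/day, and Cftr gave -0.0077 for lung minus liver change at 10 mg/kg/day. With the cardiac covariate, Cftr gave 0.028 in lung at 10 against 0 mg/kg/day and Nedd4l 0.0099 at 10 against 5 mg/kg/day. Without litter 1 at 0 and 5 mg/kg/day, Nedd4l gave -0.036 in lung at 10 mg/kg/day, and lung minus liver change at 5 mg/kg/day was 0.044 for Slc12a2 and -0.0064 for Nedd4l. Array weights gave -0.0037 for Slc12a2 in lung minus liver change at 10 mg/kg/day. With a litter left out, lung at 5 mg/kg/day ranged from -0.072 to 0.087 for Scnn1b and from -0.13 to 0.057 for Scnn1g. Lung at 10 mg/kg/day ranged from -0.036 to 0.13 for Nedd4l, from -0.022 to 0.083 for Atp1b1 and from -0.11 to 0.036 for Cftr, and Scnn1a at 10 against 5 mg/kg/day from -0.15 to 0.067. Liver at 10 mg/kg/day ranged from -0.28 to 0.13 for Scnn1b, from -0.086 to 0.10 for Scnn1g and from -0.16 to 0.017 for Nedd4l. Lung minus liver change at 5 mg/kg/day ranged from -0.079 to 0.10 for Nedd4l and from -0.22 to 0.17 for Slc12a2. At 10 mg/kg/day it ranged from -0.14 to 0.25 for Slc12a2, from -0.038 to 0.22 for Cftr and from -0.025 to 0.39 for Scnn1b. Of 644 other member changes, 628 kept their direction and side of the threshold, and of 680 with a litter left out, 634 did.

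Counts over all genes moved more. In lung at 10 mg/kg/day 7 genes were called and 3 to 14 under alternatives, 4 with the replicate block and 14 with both tissues in 1 fit. At 5 mg/kg/day 2 were called and 1 to 4 under alternatives. In liver at 5 mg/kg/day 805 were called, and 455 without litter 1 at 0 and 5 mg/kg/day, where 285 differences between tissues became 170.

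The replicate numbers were not taken to pair lung and liver. Deviations of same-numbered arrays correlated above 0.1 in 11 of 15 pairs (-0.000766 to 0.296), and 12 of 15 correlated best with their own number. Between doses, 3 of 15 pairs of lungs (-0.278 to 0.359) and 3 of 15 pairs of livers (-0.136 to 0.135) correlated above 0.1. The highest of these, 0.359, was above the highest of the same-numbered lungs and livers. Sex-linked genes did go together by number, though the labels state no shared litter. Xist deviations of same-numbered lungs and livers correlated at 0.983 over 15 pairs. Eif2s3y was low in the same pools of both tissues: litter 4 at 0, litter 5 at 5 and litter 1 at 10 mg/kg/day. It was at 1.44, 1.71 and 1.56 there in lung and at 1.54, 1.48 and 1.27 in liver. The other livers were at 5.33 to 7.32. Paired by dose and number, lung against liver still called the 6 members that passed the filter in both tissues. Cftr was called too, but it passed the filter through lung alone, so its call adds nothing. Dim probe sets limit what can be said of Cftr, Scnn1b and Scnn1g in liver.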
